A study of Homo sapiens with 24 samples.

Results

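The aminoacyl-tRNA synthetases are the enzymes that load each amino acid onto its tRNA. Their mRNAs were followed in leukemia cells treated with EPZ004777, an inhibitor of the histone H3 lysine methyltransferase DOT1L. The set was chosen by name, with earlier results of these data known. It holds 35 genes, of which 32 lie among the 19775 genes represented by a probe set listed with a single gene symbol. It comprised 19 cytosolic enzymes, with symbols ending in 1 plus FARSA and FARSB, and 16 mitochondrial enzymes, with symbols ending in 2. A probe set of their own measured 17 cytosolic and 15 mitochondrial members, and all 32 of these passed the filter on low values. MARS1, QARS1 and TARS2 were represented only on probe sets listed with several genes and were not analysed here. RNA of 24 cultures was measured on Affymetrix arrays, 3 biological replicates in each of 8 groups. MV4-11 cells, a biphenotypic B myelomonocytic leukemia line with an MLL-AF4 rearrangement grown in IMDM, received 3 uM EPZ004777 for 2, 4 or 6 days or, as vehicle, 0.1% DMSO for the same times. MOLM-13 cells, an acute myeloid leukemia line with an MLL-AF9 rearrangement grown in RPMI, received 3 uM EPZ004777 or 0.1% DMSO for 6 days. Every group, the vehicle groups included, therefore carries an MLL rearrangement, and each rearrangement is represented by a single line. The labels do not say how the replicate cultures were made, so p-values measure the spread between these cultures.

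Each synthetase joins its amino acid to the 3′ end of the tRNAs that decode it. Most amino acids have separate nuclear genes for the cytosolic enzyme and for the enzyme imported into mitochondria, while GARS1 and KARS1 each serve both compartments. Several cytosolic members are held in a multisynthetase complex. Uncharged tRNA activates the kinase GCN2, and the transcription factor ATF4 made in that response is known to bind C/EBP-ATF response elements in the promoters of many cytosolic synthetase genes. The mitochondrial enzymes serve translation of the respiratory chain subunits encoded in mitochondrial DNA.

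All levels below are log2 of the deposited intensity, and a change is the treated mean minus the vehicle mean on that scale, tested with limma and Benjamini-Hochberg adjustment over 10971 genes. An adjusted p under 0.05 is termed a call, and only called genes are said to have risen or fallen. In bulk RNA, fewer cells of a type and less RNA per cell cannot be told apart. The log2 difference between the 3′ and 5′ control probe sets of ACTB and GAPDH grows when RNA is shorter. In each of the 4 comparisons this difference did not overlap between treated and vehicle arrays. It was 2.10, 2.84 and 2.31 in treated MOLM-13 cultures, against 1.15, 0.95 and 1.13 in vehicle cultures of that line. On day 2 in MV4-11 cells it was 0.57, 0.53 and 0.57 in treated cultures, against 0.64, 0.68 and 0.66 in vehicle cultures. On day 4 it was 0.65, 0.59 and 0.67 in treated cultures, against 0.70, 0.79 and 0.82 in vehicle cultures. On day 6 in MV4-11 cells it was 0.83, 0.86 and 1.91 in treated cultures, against 0.57, 0.57 and 0.58 in vehicle cultures. The array at 1.91, treated replicate 3, also correlated least with its own group (mean r = 0.989). Results of each gene's brightest probe set that lean on it are given with and without it. Those of further probe sets and of probe set means are given only with it. Of 8 myeloid markers 7 passed the filter, all but CD33. CD14 was at or within 0.02 of the lowest value of the arrays in every group except treated MOLM-13 cultures, where it measured 4.78, 4.02 and 4.46. CSF1R stood at 10.98, 11.09 and 11.02 in treated MV4-11 cultures on day 6, against 9.14, 9.08 and 9.17 in vehicle cultures. LYZ (0.82), MPO (1.04) and ITGAM (1.14) rose there as well. FLT3 fell in all 4 comparisons, with -1.27 on day 6 in MV4-11 cells and -2.05 in MOLM-13 cells. SPI1 was called in none of the 4 comparisons. Its changes were -0.17, -0.32 and -0.28 on days 2, 4 and 6 in MV4-11 cells and 0.30 in MOLM-13 cells. Of the markers of other cell types, 2 of 6 B lymphoid, 2 of 5 T and NK, 1 of 3 megakaryocyte and 1 of 2 stromal or epithelial genes passed the filter. In MOLM-13 cells 3 of them changed on day 6, CD3D (2.74), NKG7 (0.51) and IGLL1 (-3.67). In MV4-11 cells IGLL1 rose on days 2, 4 and 6 (0.57, 1.87 and 1.04), as did NKG7 (0.36, 0.55 and 0.96) and ITGA2B (0.68, 0.72 and 1.16). PAX5 rose on day 2 (0.85) and fell on day 4 (-0.79). The part of these markers in the results was not tested.

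Called decreases among the cytosolic enzymes were present from day 2, and those among the mitochondrial enzymes came mainly on day 6. On day 2 in MV4-11 cells 6 of 17 cytosolic members fell and 0 of 15 mitochondrial members did, where 3.68% of all genes tested fell and 8.82% rose, 12.5% in all. On day 4 the counts that fell were 10 of 17 and 1 of 15, against a background of 21.0% falling and 25.2% rising, 46.2% in all. On day 6 they were 11 of 17 and 8 of 15, against 28.4% falling and 33.6% rising, 62.0% in all. In MOLM-13 cells on day 6 they were 12 of 17 and 11 of 15, against 36.5% falling and 29.3% rising, 65.8% in all. No cytosolic member rose in any of these 4 comparisons. Mitochondrial members rose in 2 cases on day 4, in 1 on day 6 and in 3 in MOLM-13 cells. Each of the 4 comparisons uses its own vehicle arrays. Array by array, all 3 treated values lay below all 3 vehicle values for 12, 12 and 12 cytosolic members on days 2, 4 and 6 and for 11 in MOLM-13 cells, where 15.4%, 27.4%, 29.6% and 37.4% of all genes did. For the mitochondrial members the counts were 0, 1, 8 and 11. All treated values lay above vehicle for 0, 1, 1 and 0 cytosolic and 2, 3, 3 and 3 mitochondrial members, where 23.5%, 31.7%, 35.2% and 30.9% of all genes did.

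**Figure D1:**
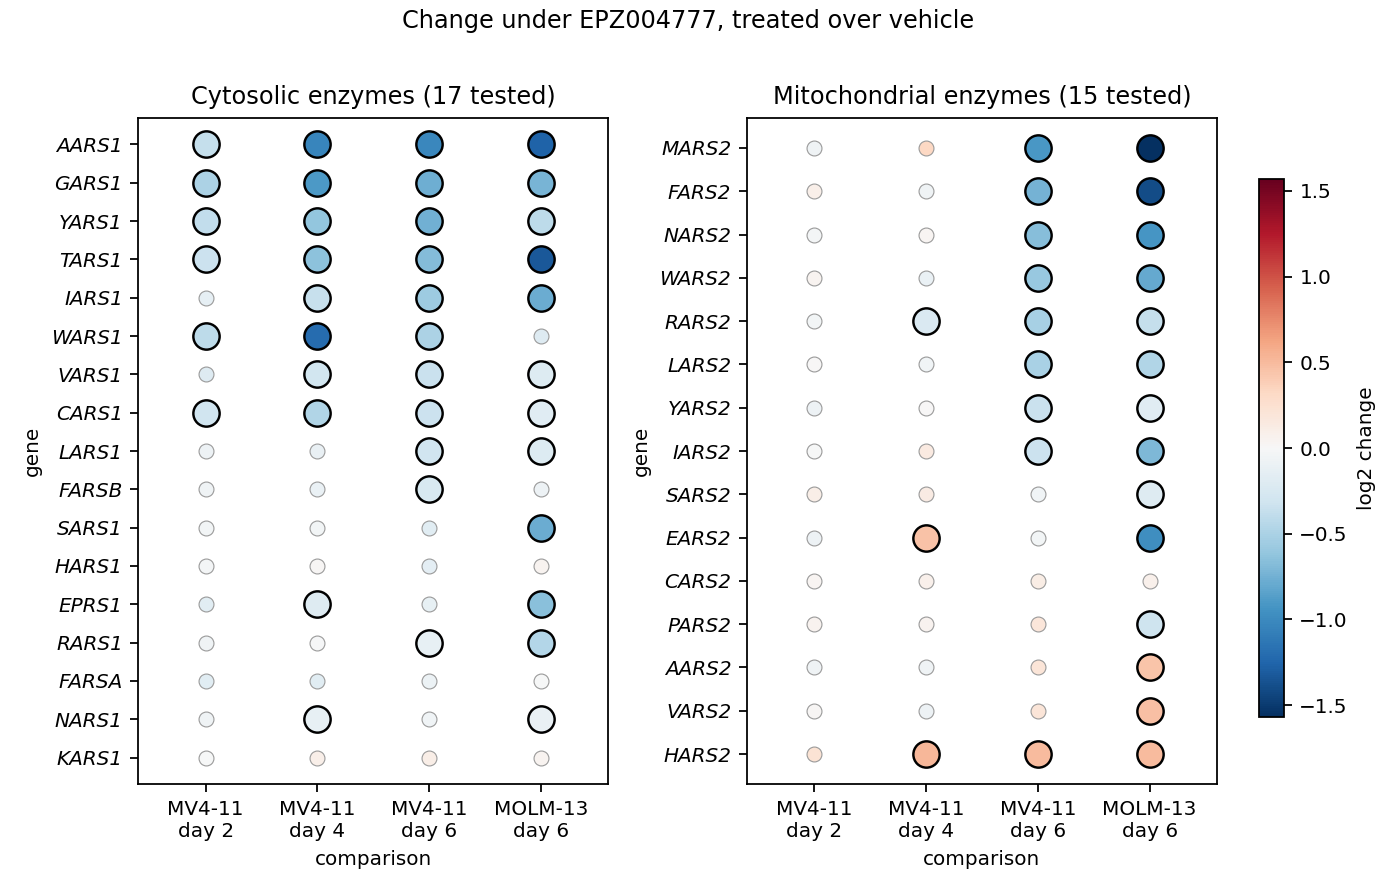
Change of each of the 32 measured members under EPZ004777 (colour, log2 treated over vehicle) in the 4 comparisons. Large circles with black rims are called changes and small circles are not; the cytosolic column of MV4-11 day 2 holds 6 called members and the mitochondrial column 0. Rows are ordered by the MV4-11 day 6 change.

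The median change of the cytosolic members was -0.17, -0.20 and -0.31 on days 2, 4 and 6 in MV4-11 cells and -0.22 in MOLM-13 cells. Over all genes tested the median was 0.02, 0.01, 0.04 and -0.03 in the same order. The mitochondrial median was 0.01 on day 2, 0.03 on day 4 and -0.33 on day 6 in MV4-11 cells, and -0.37 in MOLM-13 cells. On day 4 the mitochondrial members of the vehicle cultures were themselves lower than in the vehicle cultures of days 2 and 6. The per-array median of the mitochondrial members, centred on each member's mean of 24 arrays, lay between -0.02 and 0.02 in treated day 4 cultures, against -0.10 to -0.07 in vehicle day 4 cultures. Set against the vehicle cultures of days 2 and 6 instead, the treated day 4 cultures gave 13 cytosolic and 5 mitochondrial members that fell, with 28.0% of all genes falling.

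**Figure D2:**
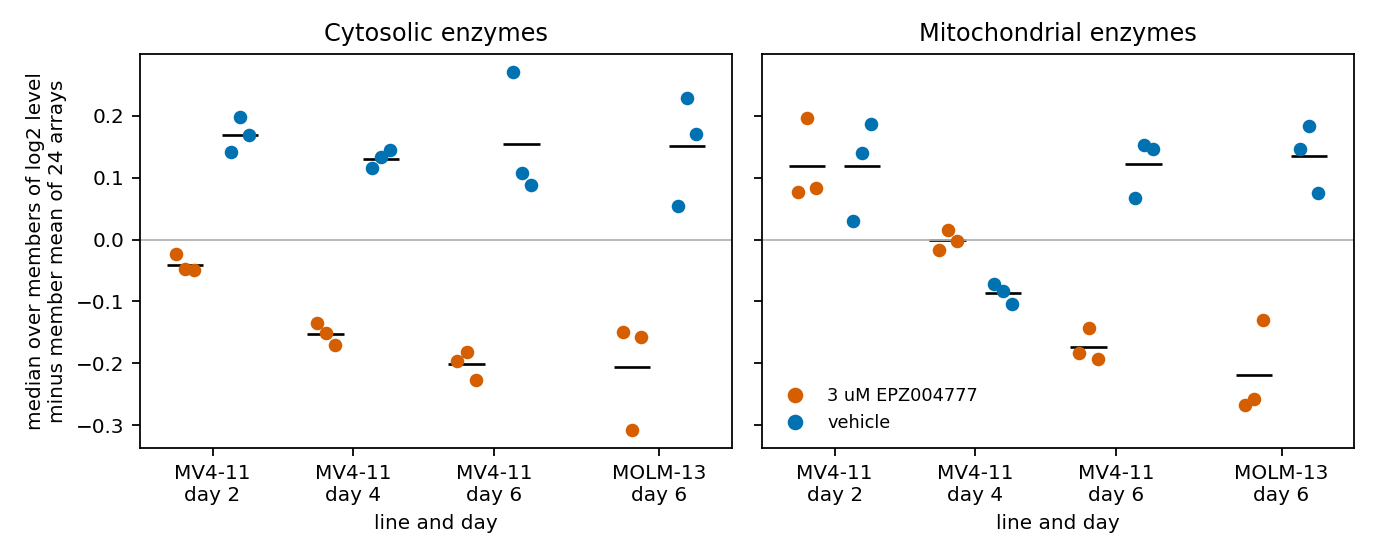
Median over the cytosolic (left) and mitochondrial (right) members of the log2 level minus the member's mean of 24 arrays, 1 point per array, with group means as bars. In each of the 4 comparisons the treated arrays of the cytosolic panel lie below their vehicle arrays, whereas the mitochondrial points overlap on day 2, are higher in treated than in vehicle arrays on day 4 and are lower in treated arrays on day 6 in both lines.

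The promoters of the cytosolic genes were searched for the core of the C/EBP-ATF response element, TGATGNAA, on both strands. Windows ran from 250 bases before to 50 after the start of transcription, as given by RefSeq for GRCh38.p14. A match was found in 7 of the 16 cytosolic genes with a window and in 1 of the 14 mitochondrial genes, where 4.46% of 27305 promoters held one. A gene counted if any of its windows held a match. CARS1, GARS1 and TARS1 have 2 windows each, and the match is in only 1 of them. For GARS1 and TARS1 that window belongs to the start further along the gene. The matches of NARS1 and TARS1 begin past the start, and those of CARS1 and MARS1 run across it. The matches are shown because 6 of the 7 cytosolic genes that hold them were measured, and their changes in all 4 comparisons follow. Each stretch is read 5′ to 3′ on the gene's strand, with the match in capitals, and a match is a description of these letters only.
AARS1 (chr16:70289666-70289713, minus strand): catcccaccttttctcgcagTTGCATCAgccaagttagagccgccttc
CARS1 (chr11:3057398-3057445, minus strand): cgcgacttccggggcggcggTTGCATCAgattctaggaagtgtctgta
GARS1 (chr7:30594825-30594872, plus strand): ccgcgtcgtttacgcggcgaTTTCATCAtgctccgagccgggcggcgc
IARS1 (chr9:92293683-92293730, minus strand): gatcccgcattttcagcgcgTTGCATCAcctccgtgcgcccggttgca
MARS1 (chr12:57488044-57488091, plus strand): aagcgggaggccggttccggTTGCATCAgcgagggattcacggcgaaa
NARS1 (chr18:57621807-57621842, minus strand): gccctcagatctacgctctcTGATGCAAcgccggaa
TARS1 (chr5:33440947-33440994, plus strand): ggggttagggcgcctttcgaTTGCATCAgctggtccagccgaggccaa
YARS2 (chr12:32756067-32756114, minus strand): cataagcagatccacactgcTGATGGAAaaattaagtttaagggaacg

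In AARS1, CARS1, IARS1, MARS1 and TARS1 the matched letters are the same TTGCATCA, the core read on the opposite strand. GARS1 has TTTCATCA, and NARS1 has the core as TGATGCAA on the gene's own strand. Of the 6 measured cytosolic members with a match, 4 fell on day 2, 6 on day 4 and 5 on day 6 in MV4-11 cells, and 6 fell in MOLM-13 cells. Of the 8 measured cytosolic members with a window and no match, 1, 2, 3 and 3 fell in the same comparisons. Of all genes tested 3.68%, 21.0%, 28.4% and 36.5% fell there. The day 4 call of NARS1, which has a match, was lost in 4 of 6 fits that left out 1 array. Vehicle cultures of day 4 were themselves higher than those of days 2 and 6 for AARS1 (0.26) and CARS1 (0.19), which have a match. Without a match, WARS1 (0.67) was higher too, and FARSB and HARS1 were lower. Against vehicle cultures of days 2 and 6, all 6 with a match fell on day 4, where 28.0% of all genes did. EPRS1, FARSA, FARSB, HARS1 and WARS1, without a match, fell there as well. The median changes of those with a match were -0.32, -0.55, -0.62 and -0.75, against -0.06, -0.07, -0.14 and -0.14 for those without. The difference between the groups with and without a match was not tested. LARS1, VARS1, YARS1, AARS2 and VARS2 had no window. The E-box CACGTG, searched the same way, was in 1 of 16 cytosolic and 3 of 14 mitochondrial windows, where 8.77% of all promoters held it.

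AARS1, GARS1, TARS1, YARS1 and CARS1 fell in all 4 comparisons (5 of 17 cytosolic members), as did 1.86% of all genes tested. AARS1 (chr16:70252298-70289506) charges alanine. It measured 11.59, 11.49 and 11.53 in treated cultures, against 11.91, 12.01 and 11.83 in vehicle cultures on day 2. On day 4 it measured 11.11, 11.18 and 11.27 in treated cultures, against 12.25, 12.16 and 12.27 in vehicle cultures. On day 6 it measured 11.11, 11.10 and 10.76 in treated cultures, against 12.18, 11.96 and 11.90 in vehicle cultures. No treated array reached its day's vehicle arrays, and the gap was wider on days 4 and 6 than on day 2. In MOLM-13 cells AARS1 measured 10.55, 10.19 and 10.40 in treated cultures, against 11.45, 11.83 and 11.68 in vehicle cultures. Its changes were -0.38 ± 0.11 (SE), adjusted p = 0.0245 on day 2, -1.04 ± 0.11 (SE), adjusted p = 1.78e-07 on day 4 and -1.02 ± 0.11 (SE), adjusted p = 1.16e-07 on day 6, the last being 2.03-fold lower. In MOLM-13 cells it was -1.27 ± 0.11 (SE), adjusted p = 5.23e-09. The day 2 call was lost without treated replicate 2 or 3 or vehicle replicate 1 or 2, at adjusted p values of 0.0657 to 0.100 and, without the filter on low values, at 0.0521.

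GARS1 (chr7:30594735-30634033) charges glycine in both compartments. Its level was 12.72, 12.58 and 12.67 in treated cultures, against 13.16, 13.22 and 13.08 in vehicle cultures on day 2. On day 4 the arrays read 12.32, 12.43 and 12.34 in treated cultures, against 13.24, 13.18 and 13.37 in vehicle cultures. On day 6 they read 12.30, 12.28 and 12.52 in treated cultures, against 13.22, 13.11 and 13.07 in vehicle cultures. Every treated array lay below every vehicle array of its day. MOLM-13 cultures gave 12.50, 12.42 and 12.42 in treated cultures, against 12.93, 13.31 and 13.26 in vehicle cultures. The changes of GARS1 were -0.49 ± 0.087 (SE), adjusted p = 0.000745 on day 2, -0.90 (adjusted p = 7.11e-08) on day 4, -0.76 (adjusted p = 3.45e-07) on day 6 and -0.72 (adjusted p = 5.74e-07) in MOLM-13 cells.

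TARS1 (chr5:33440696-33468091) charges threonine. It stood at 12.15, 12.26 and 12.13 in treated cultures, against 12.54, 12.40 and 12.62 in vehicle cultures on day 2. On day 4 it stood at 12.15, 12.09 and 12.00 in treated cultures, against 12.66, 12.66 and 12.83 in vehicle cultures. On day 6 it stood at 12.03, 12.04 and 11.90 in treated cultures, against 12.82, 12.67 and 12.52 in vehicle cultures. The treated arrays of the 3 days were close to each other and all below vehicle. The largest gap of TARS1 was in MOLM-13 cells, with 11.49, 10.90 and 11.25 in treated cultures, against 12.48, 12.62 and 12.53 in vehicle cultures. Its changes were -0.34 (adjusted p = 0.0461), -0.64 (adjusted p = 7.76e-05) and -0.68 (adjusted p = 2.17e-05) on days 2, 4 and 6, and -1.33 ± 0.11 (SE), adjusted p = 3.48e-09 in MOLM-13 cells, 2.52-fold lower. The day 2 call was lost when treated replicate 1, 2 or 3 or vehicle replicate 1 or 3 was left out, at adjusted p values of 0.0682 to 0.166. It was lost with the mean of probe sets (-0.18, adjusted p = 0.107), with quantile normalization once more (-0.30, adjusted p = 0.0827) and without the filter, at an adjusted p of 0.0936.

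YARS1 (chr1:32775239-32817358) charges tyrosine. Day 2 arrays read 12.32, 12.25 and 12.24 in treated cultures, against 12.67, 12.73 and 12.59 in vehicle cultures. Day 4 arrays read 11.95, 11.99 and 12.00 in treated cultures, against 12.57, 12.63 and 12.61 in vehicle cultures. Day 6 arrays read 11.87, 11.80 and 11.97 in treated cultures, against 12.67, 12.64 and 12.58 in vehicle cultures. The treated arrays lay below vehicle on each day. MOLM-13 arrays read 12.31, 12.34 and 12.26 in treated cultures, against 12.58, 12.80 and 12.77 in vehicle cultures. YARS1 changed by -0.39 (adjusted p = 0.00017), -0.62 (adjusted p = 6.33e-08) and -0.75 ± 0.060 (SE), adjusted p = 2.51e-09 on the 3 days and by -0.41 (adjusted p = 5.71e-06) in MOLM-13 cells. A less bright probe set of the gene gave 0.26 (adjusted p = 0.0951) in MOLM-13 cells, and with the mean of both probe sets the MOLM-13 change was -0.08 (adjusted p = 0.455).

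CARS1 (chr11:3000929-3057423) charges cysteine and, by its brightest probe set, fell least of these 5 in MOLM-13 cells. Its arrays read 11.21, 11.19 and 11.23 in treated cultures, against 11.51, 11.58 and 11.46 in vehicle cultures on day 2. On day 4 they read 11.20, 11.37 and 11.28 in treated cultures, against 11.73, 11.69 and 11.81 in vehicle cultures. On day 6 they read 11.22, 11.26 and 11.25 in treated cultures, against 11.74, 11.55 and 11.47 in vehicle cultures. The groups did not overlap on any of the 3 days. In MOLM-13 cells the levels were 11.38, 11.41 and 11.42 in treated cultures, against 11.40, 11.71 and 11.66 in vehicle cultures, and treated and vehicle arrays overlapped. The changes were -0.31 (adjusted p = 0.00925), -0.47 (adjusted p = 3.59e-05), -0.34 (adjusted p = 0.000538) and -0.19 (adjusted p = 0.0345). With the mean of its probe sets the day 2 change was -0.26 (adjusted p = 0.3) and not called. The MOLM-13 change with that mean was larger, at -1.15 (adjusted p = 1.09e-06). The MOLM-13 call was lost when treated replicate 1, 2 or 3 or vehicle replicate 2 or 3 was left out, at adjusted p values of 0.0571 to 0.176.

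**Figure D3:**
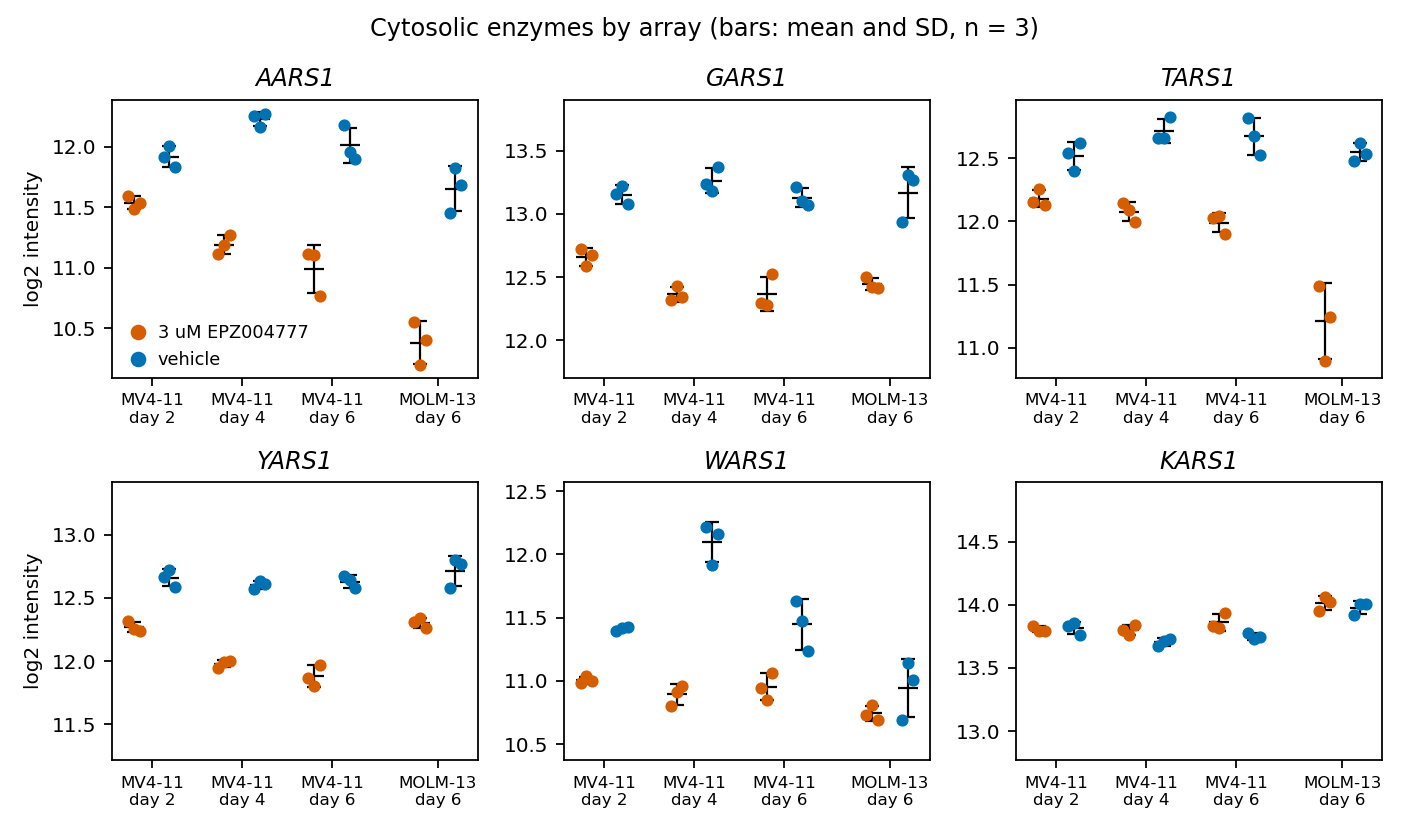
Log2 intensity of 6 cytosolic members in each array, treated left of vehicle for every line and day, with mean and SD of 3 arrays. AARS1, GARS1, TARS1 and YARS1 are lower in treated arrays throughout, WARS1 has its highest values in the vehicle arrays of day 4, and KARS1 spans 13.67 to 14.06. The scale spans differ between panels, and levels are not comparable between genes.

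WARS1 (chr14:100333790-100376327), which charges tryptophan and is known to be induced by interferon gamma, fell on the 3 MV4-11 days. It measured 10.98, 11.04 and 11.00 in treated cultures, against 11.39, 11.42 and 11.42 in vehicle cultures on day 2. On day 4 it measured 10.80, 10.91 and 10.96 in treated cultures, against 12.22, 11.92 and 12.16 in vehicle cultures. On day 6 it measured 10.94, 10.85 and 11.06 in treated cultures, against 11.63, 11.47 and 11.23 in vehicle cultures. The day 4 vehicle arrays were the highest of all, while the treated arrays of the 3 days spanned 10.80 to 11.06. Its changes were -0.41 (adjusted p = 0.0144) on day 2, -1.21 ± 0.11 (SE), adjusted p = 1.69e-08 on day 4 and -0.49 (adjusted p = 0.000439) on day 6. Between vehicle cultures of day 4 and those of days 2 and 6 the difference was 0.67 (adjusted p = 3.18e-05). Against vehicle cultures of days 2 and 6, the change of the treated day 4 cultures was -0.54 (adjusted p = 4.91e-05). In a list of interferon-stimulated genes chosen after these values were seen, 15 of 15 tested were higher in the day 4 vehicle cultures (13.4% of all genes were), with a median of 3.25, and their part in the WARS1 value was not tested. In MOLM-13 cells WARS1 measured 10.73, 10.81 and 10.69 in treated cultures, against 10.69, 11.14 and 11.01 in vehicle cultures, a change of -0.20 (adjusted p = 0.0975) that was not called. Without vehicle replicate 1 it was -0.33 (adjusted p = 0.00857). Its less bright probe set gave -1.39 (adjusted p = 2.46e-06) there and -1.31 (adjusted p = 5.74e-06) on day 6 in MV4-11 cells.

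IARS1, which charges isoleucine, fell from day 4 on. In MOLM-13 cells it measured 12.45, 12.26 and 12.41 in treated cultures, against 13.07, 13.24 and 13.12 in vehicle cultures. The changes were -0.37 (adjusted p = 0.000314) on day 4, -0.57 (adjusted p = 1.25e-06) on day 6 and -0.77 ± 0.072 (SE), adjusted p = 1.79e-08 in MOLM-13 cells, with no overlap of the arrays there. VARS1, for valine, changed by -0.30 (adjusted p = 0.00271) on day 4 and -0.35 (adjusted p = 0.000584) on day 6. Its day 4 change with the mean of its probe sets was -0.12 (adjusted p = 0.515) and not called. In MOLM-13 cells VARS1 measured 12.08, 11.96 and 11.96 in treated cultures, against 12.15, 12.19 and 12.29 in vehicle cultures, a change of -0.22 (adjusted p = 0.0181). That small MOLM-13 call was lost without treated replicate 2 or 3 or vehicle replicate 3, at adjusted p values of 0.055 to 0.0806.

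LARS1, for leucine, fell on day 6 in both lines, with a change of -0.31 (adjusted p = 0.00203) in MV4-11 cells. That call was lost with quantile normalization once more (-0.18, adjusted p = 0.0544), with the 3′ to 5′ covariate (-0.21, adjusted p = 0.058) and in a fit of only the arrays compared, at an adjusted p of 0.0513. Its MOLM-13 arrays read 12.14, 12.19 and 12.19 in treated cultures, against 12.37, 12.35 and 12.44 in vehicle cultures, a change of -0.21 (adjusted p = 0.0252). The MOLM-13 call was lost without treated replicate 1 or vehicle replicate 3, at adjusted p values of 0.0673 and 0.0826. RARS1, for arginine, changed by -0.12 (adjusted p = 0.0192) on day 6 in MV4-11 cells. The MV4-11 call was lost without treated replicate 1 or 2 or vehicle replicate 1, at adjusted p values of 0.0576 to 0.113. With quantile normalization once more it was -0.03 (adjusted p = 0.588), and in a fit of only the arrays compared the adjusted p was 0.112. In MOLM-13 cells RARS1 read 11.68, 11.59 and 11.65 in treated cultures, against 12.10, 12.10 and 12.09 in vehicle cultures, a change of -0.46 ± 0.044 (SE), adjusted p = 2.52e-08. FARSB, the beta subunit of the phenylalanine enzyme, fell on day 6 in MV4-11 cells with a change of -0.26 (adjusted p = 0.00357), its only call among the 4 comparisons. With the mean of its probe sets it was -0.16 (adjusted p = 0.239) and not called. FARSA, the alpha subunit, was called in none of them.

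EPRS1, a fused enzyme for glutamate and proline, fell on day 4 with a change of -0.20 (adjusted p = 0.0203). In MOLM-13 cells it read 12.01, 11.72 and 11.92 in treated cultures, against 12.43, 12.58 and 12.58 in vehicle cultures, a change of -0.65 ± 0.067 (SE), adjusted p = 7.98e-08, and no arrays overlapped. The day 4 call was lost without treated replicate 3, at an adjusted p of 0.0528. On day 6 in MV4-11 cells the EPRS1 change was -0.13 (adjusted p = 0.113) and not called. A further probe set of the gene changed by far more there, as given below. NARS1, for asparagine, showed small changes of -0.12 (adjusted p = 0.0383) on day 4 and -0.06 (adjusted p = 0.298) on day 6, where it was the smallest of the cytosolic set. On day 6 NARS1 measured 13.39, 13.47 and 13.46 in treated cultures, against 13.54, 13.51 and 13.45 in vehicle cultures of MV4-11 cells, with overlap. Its MOLM-13 arrays read 13.53, 13.45 and 13.62 in treated cultures, against 13.63, 13.67 and 13.65 in vehicle cultures. Its MOLM-13 change was -0.12 (adjusted p = 0.0385), and this call and that of day 4 were lost in most leave-one-out fits. The MOLM-13 call was lost without treated replicate 1 or 2 or any vehicle replicate, and the day 4 call without treated replicate 2 or 3 or vehicle replicate 2 or 3. SARS1, for serine, fell in MOLM-13 cells alone of the 4 comparisons. It read 9.89, 10.09 and 10.21 in treated cultures, against 10.61, 11.03 and 10.89 in vehicle cultures there, a change of -0.78 ± 0.11 (SE), adjusted p = 6.85e-06.

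FARSA, HARS1 and KARS1 were called in none of the 4 comparisons. KARS1, for lysine in both compartments, measured 13.83, 13.81 and 13.93 in treated cultures, against 13.78, 13.73 and 13.74 in vehicle cultures on day 6 in MV4-11 cells. Its treated arrays there lay just above vehicle, with a change of 0.11 (adjusted p = 0.0569). HARS1, for histidine, changed by -0.15 (adjusted p = 0.0945) on that day and FARSA by -0.09 (adjusted p = 0.293).

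Of the mitochondrial members, 8 of 15 fell on day 6 in both lines: FARS2, MARS2, NARS2, WARS2, RARS2, LARS2, YARS2 and IARS2. Of all genes tested, 18.7% fell in both. FARS2 (chr6:5249934-5771583) charges phenylalanine. Its MV4-11 arrays of day 6 read 9.01, 9.04 and 8.89 in treated cultures, against 9.64, 9.90 and 9.61 in vehicle cultures. Its MOLM-13 arrays read 8.19, 7.71 and 8.07 in treated cultures, against 9.41, 9.44 and 9.33 in vehicle cultures. The groups were far apart in both lines, whereas on day 2 the treated arrays of MV4-11 cells, 9.71, 9.75 and 9.72, reached or passed the vehicle arrays, 9.56, 9.63 and 9.71. The changes were -0.74 ± 0.094 (SE), adjusted p = 1.33e-06 in MV4-11 cells and -1.40 ± 0.094 (SE), adjusted p = 2.22e-10 in MOLM-13 cells, the second 2.64-fold lower. With the 3′ to 5′ difference as a covariate they were -0.56 (adjusted p = 6.21e-05) and -1.03 (adjusted p = 2.37e-05).

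MARS2 (chr2:197705369-197708395) charges methionine and had the largest day 6 change of the mitochondrial set in both lines. In MV4-11 cells it read 8.28, 8.22 and 7.06 in treated cultures, against 8.64, 8.87 and 8.78 in vehicle cultures. Treated replicate 3 lay far below the other 2 treated arrays. In MOLM-13 cells it read 6.57, 6.02 and 6.41 in treated cultures, against 8.03, 7.93 and 7.75 in vehicle cultures, with every treated array more than 1 log2 unit below vehicle. The changes were -0.91 ± 0.23 (SE), adjusted p = 0.00184 and -1.57 ± 0.23 (SE), adjusted p = 6.18e-06. Without treated replicate 3 the MV4-11 change was -0.51 (adjusted p = 0.00924). With the 3′ to 5′ covariate neither call held, at -0.30 (adjusted p = 0.122) and -0.27 (adjusted p = 0.396).

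NARS2 (chr11:78435968-78574864), for asparagine, read 10.08, 9.88 and 9.19 in treated cultures, against 10.30, 10.41 and 10.43 in vehicle cultures on day 6 in MV4-11 cells. Treated replicate 3 was again the lowest. In MOLM-13 cells NARS2 read 9.62, 8.89 and 9.39 in treated cultures, against 10.24, 10.32 and 10.13 in vehicle cultures. The changes were -0.67 (adjusted p = 0.00195) in MV4-11 cells and -0.93 (adjusted p = 7.66e-05) in MOLM-13 cells. Without treated replicate 3 the MV4-11 change was -0.40 (adjusted p = 0.0146). With the covariate the values were -0.16 (adjusted p = 0.0661) and 0.15 (adjusted p = 0.291), the second of opposite sign.

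WARS2 (chr1:119031216-119140672), for tryptophan, read 6.47, 6.47 and 6.76 in treated cultures, against 7.27, 7.33 and 7.51 in vehicle cultures in MOLM-13 cells, with no overlap. Its changes were -0.60 ± 0.084 (SE), adjusted p = 4.51e-06 in MV4-11 cells and -0.80 ± 0.084 (SE), adjusted p = 9.02e-08 in MOLM-13 cells, and with the covariate they were -0.53 (adjusted p = 0.000221) and -0.66 (adjusted p = 0.0023). LARS2, for leucine, read 9.35, 9.30 and 9.30 in treated cultures, against 9.82, 9.76 and 9.79 in vehicle cultures in MOLM-13 cells. Both lines gave close values of its change, -0.51 (adjusted p = 3.85e-07) in MV4-11 cells and -0.48 (adjusted p = 7.3e-07) in MOLM-13 cells. RARS2, for arginine, fell on day 4 too, with a change of -0.24 (adjusted p = 0.0252). That call was lost without treated replicate 1 or vehicle replicate 1 or 2 and with the mean of probe sets (-0.09, adjusted p = 0.229).

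RARS2 read 9.95, 10.06 and 9.84 in treated cultures, against 10.28, 10.42 and 10.27 in vehicle cultures in MOLM-13 cells. Its day 6 changes were -0.52 (adjusted p = 2.61e-05) in MV4-11 cells and -0.37 (adjusted p = 0.00075) in MOLM-13 cells, and with the covariate the second was -0.37 (adjusted p = 0.0711). YARS2, for tyrosine, had the smallest MOLM-13 change of the 8, with arrays at 10.27, 10.22 and 10.27 in treated cultures, against 10.38, 10.36 and 10.59 in vehicle cultures. YARS2 changed by -0.35 (adjusted p = 1.9e-05) in MV4-11 cells and -0.19 (adjusted p = 0.00608) in MOLM-13 cells. The MOLM-13 call was lost without vehicle replicate 3, at -0.12 (adjusted p = 0.0591), and with the covariate, at -0.17 (adjusted p = 0.203). It was lost in a fit of only the arrays compared as well, at an adjusted p of 0.0795. IARS2, for isoleucine, read 11.88, 11.66 and 11.87 in treated cultures, against 12.50, 12.52 and 12.52 in vehicle cultures in MOLM-13 cells. Its changes were -0.33 (adjusted p = 0.00631) in MV4-11 cells and -0.71 (adjusted p = 3.55e-06) in MOLM-13 cells. Without treated replicate 3 the MV4-11 change of IARS2 was -0.17 (adjusted p = 0.045), and with the covariate neither call held, at -0.08 (adjusted p = 0.367) and -0.16 (adjusted p = 0.24). In a fit of only the arrays compared, the MV4-11 day 6 calls of MARS2, NARS2 and IARS2 were lost, at adjusted p values of 0.0729, 0.0604 and 0.117, and that of IARS2 was also lost with quantile normalization once more (-0.18, adjusted p = 0.0854).

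With the 3′ to 5′ difference as a covariate, 5 mitochondrial members fell on day 6 in MV4-11 cells and 6 in MOLM-13 cells, in place of 8 and 11. Of all genes tested, 28.4% and 36.5% fell there without the covariate, and the shares with it are not given. With the covariate the cytosolic count in MOLM-13 cells was 7 in place of 12. The calls lost were those of CARS1 (-0.17, adjusted p = 0.361), LARS1 (0.01, adjusted p = 0.949), NARS1 (-0.08, adjusted p = 0.493), SARS1 (-0.38, adjusted p = 0.114) and VARS1 (-0.25, adjusted p = 0.176). AARS1, GARS1, TARS1, YARS1, IARS1, EPRS1 and RARS1 were still lower, although AARS1 (-0.77, adjusted p = 0.000496), IARS1 (-0.40, adjusted p = 0.00089) and EPRS1 (-0.36, adjusted p = 0.00559) changed less. Of the mitochondrial members EARS2 changed less (-0.61, adjusted p = 0.0126), and PARS2 (-0.61, adjusted p = 0.00354) and SARS2 (-0.40, adjusted p = 0.0149) changed more. The small MOLM-13 changes of CARS1, LARS1, NARS1, VARS1, SARS2 and YARS2 were no longer called when arrays were set to a common median or quantile normalized once more. Quantile normalization once more gave -0.30 (adjusted p = 1.26e-05) for RARS1 and -0.25 (adjusted p = 0.00309) for YARS1 in MOLM-13 cells. Since the 3′ to 5′ difference itself moved with treatment in both lines, the covariate and the treatment cannot be fully told apart in either. Without treated replicate 3 the MV4-11 day 6 count of mitochondrial members that fell was 8.

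**Figure D4:**
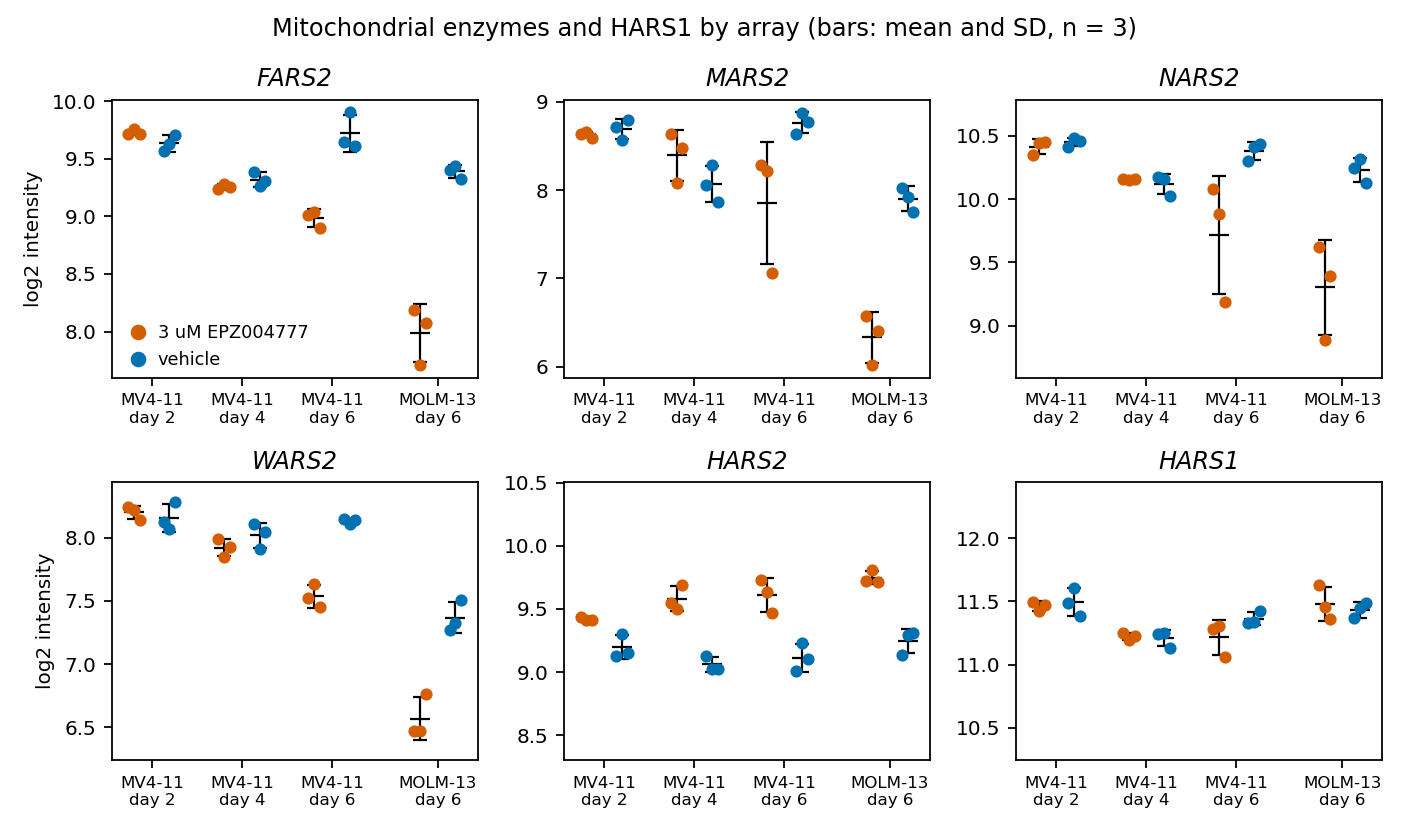
Log2 intensity of 5 mitochondrial members and of HARS1 in each array, treated left of vehicle, with mean and SD of 3 arrays. FARS2, MARS2, NARS2 and WARS2 part from vehicle on day 6 in both lines, with 1 treated MV4-11 array far below in MARS2 and NARS2, whereas HARS2 is higher in treated arrays and HARS1 overlaps or lies close to vehicle.

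HARS2 (chr5:140691455-140699305), the mitochondrial histidine enzyme, went the other way and rose on days 4 and 6 and in MOLM-13 cells. It measured 9.43, 9.41 and 9.42 in treated cultures, against 9.13, 9.31 and 9.15 in vehicle cultures on day 2. On day 4 it measured 9.55, 9.50 and 9.69 in treated cultures, against 9.13, 9.03 and 9.03 in vehicle cultures. On day 6 it measured 9.73, 9.63 and 9.47 in treated cultures, against 9.01, 9.23 and 9.10 in vehicle cultures. Treated arrays were above vehicle on each day, although the day 2 change, 0.22 (adjusted p = 0.0623), was not called. MOLM-13 arrays read 9.72, 9.81 and 9.71 in treated cultures, against 9.14, 9.29 and 9.31 in vehicle cultures. The changes were 0.52 ± 0.076 (SE), adjusted p = 1.4e-05 on day 4, 0.50 (adjusted p = 1.28e-05) on day 6 and 0.50 (adjusted p = 1.06e-05) in MOLM-13 cells. The covariate values on day 6 were 0.57 (adjusted p = 3.14e-05) in MV4-11 cells and 0.66 (adjusted p = 0.000964) in MOLM-13 cells.

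HARS2 and HARS1 are transcribed in opposite directions on chromosome 5, with 84 bases between their starts. The stretch between the starts (chr5:140691371-140691454, GRCh38.p14, plus strand, as HARS2 is read) is shown because the pair shares it. Neither motif above is in it, so it is printed without capitals.
HARS1 and HARS2: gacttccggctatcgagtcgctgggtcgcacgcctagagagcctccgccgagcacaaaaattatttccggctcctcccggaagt

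HARS1 on the other side of this stretch measured 11.28, 11.31 and 11.06 in treated cultures, against 11.33, 11.33 and 11.43 in vehicle cultures on day 6 in MV4-11 cells. Every treated array there lay below every vehicle array. In MOLM-13 cells HARS1 measured 11.63, 11.46 and 11.36 in treated cultures, against 11.37, 11.45 and 11.49 in vehicle cultures, with overlap. Its changes, -0.15 (adjusted p = 0.0945) and 0.05 (adjusted p = 0.609), were not called. Whether the changes of HARS2 and HARS1 differ from each other was not tested.

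AARS2 and VARS2, the mitochondrial alanine and valine enzymes, rose in MOLM-13 cells. AARS2 read 10.49, 10.62 and 10.45 in treated cultures, against 10.09, 9.90 and 10.24 in vehicle cultures, and VARS2 read 11.15, 11.13 and 11.18 in treated cultures, against 10.64, 10.71 and 10.71 in vehicle cultures. The treated arrays lay above vehicle for both genes. Their changes were 0.45 (adjusted p = 0.000212) and 0.47 (adjusted p = 0.00067), and with the covariate 0.05 (adjusted p = 0.796) and 0.04 (adjusted p = 0.879). In MV4-11 cells on day 6 they were 0.20 (adjusted p = 0.062) and 0.21 (adjusted p = 0.0974).

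EARS2, the mitochondrial glutamate enzyme, moved in opposite directions in different comparisons. On day 4 in MV4-11 cells it measured 8.72, 8.89 and 8.99 in treated cultures, against 8.37, 8.52 and 8.34 in vehicle cultures, a change of 0.46 (adjusted p = 0.00206). The day 4 vehicle arrays were the low ones, and against vehicle cultures of days 2 and 6 the change was 0.08 (adjusted p = 0.513). With the mean of its probe sets it was 0.09 (adjusted p = 0.385). On day 6 it measured 8.72, 8.81 and 8.53 in treated cultures, against 8.69, 8.67 and 8.82 in vehicle cultures, the smallest change of the mitochondrial set at -0.04 (adjusted p = 0.793). In MOLM-13 cells it measured 7.98, 7.73 and 8.26 in treated cultures, against 8.99, 8.99 and 8.93 in vehicle cultures, a change of -0.98 ± 0.11 (SE), adjusted p = 2.44e-07. PARS2, for proline, read 7.13, 7.18 and 7.35 in treated cultures, against 7.57, 7.51 and 7.57 in vehicle cultures in MOLM-13 cells and changed by -0.33 (adjusted p = 0.0032). SARS2, for serine, read 8.86, 8.87 and 8.99 in treated cultures, against 9.05, 9.13 and 9.14 in vehicle cultures there and changed by -0.20 (adjusted p = 0.0203). The SARS2 call was lost without treated replicate 1 or 2 or vehicle replicate 2 or 3, at adjusted p values of 0.0563 to 0.0685. CARS2, for cysteine, was the only mitochondrial member called in none of the 4 comparisons. It changed by 0.11 (adjusted p = 0.124) on day 6 in MV4-11 cells and 0.07 (adjusted p = 0.313) in MOLM-13 cells. With the mean of its probe sets the MOLM-13 change was -0.20 (adjusted p = 0.0243), called and of opposite sign.

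The day by day difference of the treatment effect in MV4-11 cells was tested directly. Between day 4 and day 2, AARS1 (-0.66), GARS1 (-0.41) and WARS1 (-0.80) changed further downward, and EARS2 (0.53) upward, where 15.0% of all genes differed, 7.77% downward and 7.22% upward. The EARS2 and GARS1 differences were each no longer called in 7 of the 12 fits that left out 1 array of those days. With the mean of probe sets the EARS2 difference was 0.17 (adjusted p = 0.411), and with quantile normalization once more the GARS1 difference was -0.37 (adjusted p = 0.0591). The differences of days 4 and 6 from day 2 share the day 2 arrays. Between day 6 and day 2, 3 of 17 cytosolic members were lower, AARS1, IARS1 and YARS1. Of the mitochondrial members 7 of 15 were lower and 1, HARS2, was higher, where 39.6% of all genes differed, 18.7% downward and 20.9% upward. The 7 were FARS2 (-0.83, adjusted p = 7.5e-05), MARS2 (-0.85, adjusted p = 0.0443), WARS2 (-0.64, adjusted p = 0.000321), NARS2 (-0.63, adjusted p = 0.0419), LARS2 (-0.52, adjusted p = 7.85e-05), RARS2 (-0.48, adjusted p = 0.00383) and YARS2 (-0.27, adjusted p = 0.0111). Without treated replicate 3 of day 6 the differences of MARS2 and NARS2 were -0.45 (adjusted p = 0.107) and -0.37 (adjusted p = 0.119). With the covariate they were -0.14 (adjusted p = 0.675) and -0.04 (adjusted p = 0.777). The differences of MARS2, NARS2 and HARS2 were each lost in 9 of 12 fits that left out 1 array, and the YARS1 difference was -0.07 (adjusted p = 0.686) with the mean of probe sets. The mitochondrial count of 8 called differences was 5 when treated replicate 1, 2 or 3 or vehicle replicate 2 or 3 of day 2, or vehicle replicate 3 of day 6, was left out.

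The day 6 effect differed between MOLM-13 and MV4-11 cells for 5 of 17 cytosolic and 4 of 15 mitochondrial members, where 52.0% of all genes differed, 32.7% toward lower and 19.4% toward higher, and the median difference over all genes was -0.10. Medium differed with the line, so line and medium cannot be told apart. Without treated MV4-11 replicate 3 the mitochondrial count was 8, with MARS2 at -1.05 (adjusted p = 0.000392). The effect was more negative in MOLM-13 cells for EARS2 (-0.94, adjusted p = 5.56e-05), FARS2 (-0.66, adjusted p = 0.000353), TARS1 (-0.65, adjusted p = 0.00165), SARS1 (-0.60, adjusted p = 0.00456), PARS2 (-0.52, adjusted p = 0.00221), EPRS1 (-0.52, adjusted p = 0.000141), IARS2 (-0.37, adjusted p = 0.0308) and RARS1 (-0.34, adjusted p = 0.000158). It was less negative for YARS1 (0.33, adjusted p = 0.00273). SARS1 in MV4-11 cells on day 6 measured 11.28, 11.34 and 10.85 in treated cultures, against 11.42, 11.33 and 11.27 in vehicle cultures, with overlapping arrays. EPRS1 there measured 11.93, 12.01 and 11.81 in treated cultures, against 12.12, 12.02 and 11.98 in vehicle cultures, and RARS1 11.99, 12.01 and 12.09 in treated cultures, against 12.22, 12.10 and 12.14 in vehicle cultures. PARS2 measured 8.15, 8.07 and 8.43 in treated cultures, against 7.95, 8.11 and 8.03 in vehicle cultures, with overlapping arrays, and IARS2 measured 12.53, 12.45 and 11.99 in treated cultures, against 12.61, 12.63 and 12.72 in vehicle cultures. With the mean of its probe sets the EPRS1 difference was 0.56 (adjusted p = 0.00271), of opposite sign, and that of TARS1 was -0.21 (adjusted p = 0.0754). With the 3′ to 5′ covariate SARS1 (-0.38, adjusted p = 0.0605) and IARS2 (-0.08, adjusted p = 0.482) no longer differed past the threshold, and the IARS2 difference was lost in 6 of 12 fits that left out 1 array. For AARS1, GARS1, CARS1 and IARS1 the difference between lines was not called, at -0.25, 0.04, 0.16 and -0.21. Without treated MV4-11 replicate 3 AARS1 and IARS1 were called, at -0.37 (adjusted p = 0.0353) and -0.30 (adjusted p = 0.00494).

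In vehicle cultures on day 6 the lines already differed. MOLM-13 cells were higher than MV4-11 cells in 5 cytosolic and 5 mitochondrial members and lower in 5 and 4, where 63.8% of all genes differed, 30.7% higher and 33.0% lower. AARS2 differed most, with 10.09, 9.90 and 10.24 in MOLM-13 vehicle cultures, against 8.76, 8.86 and 8.76 in MV4-11 vehicle cultures (1.28, adjusted p = 1.44e-10). VARS1 (0.98), VARS2 (0.77) and CARS2 (0.68) were higher in MOLM-13 cells too. MARS2 (-0.86), WARS2 (-0.76) and WARS1 (-0.50) were lower there, of which WARS2 was not called with the mean of probe sets (-0.07, adjusted p = 0.314). Within the MV4-11 vehicle cultures, day 4 differed from days 2 and 6 in 3 cytosolic members upward, AARS1, CARS1 and WARS1, and 3 downward, FARSB, HARS1 and VARS1. Of the mitochondrial members 6 were lower on day 4, EARS2, FARS2, LARS2, MARS2, SARS2 and YARS2, where 28.6% of all genes differed, 13.4% upward and 15.2% downward. Without vehicle replicate 3 of day 4 the cytosolic count was 2 in place of 6, and with the mean of probe sets the CARS1 difference was 0.00 (adjusted p = 0.994). The largest of these differences were WARS1 (0.67) and MARS2 (-0.66).

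Probe sets of the same gene did not always move alike. The brightest probe set stood for each gene, and 17 of the measured members had 24 further probe sets that passed the filter. On day 6 in MV4-11 cells the further probe sets had a median change of -0.50, and 16 of 24 fell and 1 rose. The chosen probe sets of the same genes had a median of -0.29. In MOLM-13 cells 16 of 24 fell and 2 rose, with medians of -0.64 and -0.21. On day 2, 1 of 24 fell and 0 rose. Of all genes, each by its brightest probe set, 28.4%, 36.5% and 3.68% fell in these comparisons. The share over all probe sets, which would be the matching one, was not counted. Further probe sets of VARS1 (-2.35, adjusted p = 5.59e-07), EPRS1 (-1.96, adjusted p = 1.4e-07) and CARS1 (-2.16, adjusted p = 0.000311) changed on day 6 in MV4-11 cells by far more than the chosen ones. In treated MV4-11 cultures replicate 3, the array with the large 3′ to 5′ difference, was the lowest in the 4 further probe sets plotted. The part of that difference in these values was not tested. The 4 are examples out of the 24. Changes of further probe sets and of probe set means were not fitted without replicate 3. With the mean of each gene's probe sets, the MV4-11 day 6 change was larger for VARS1 (-1.35, adjusted p = 1.05e-07), WARS1 (-0.90, adjusted p = 1.52e-06), CARS1 (-0.80, adjusted p = 9.01e-05) and LARS1 (-0.67, adjusted p = 0.000187). It was smaller for TARS1 (-0.34, adjusted p = 0.000208), FARS2 (-0.34, adjusted p = 4.74e-05), WARS2 (-0.35, adjusted p = 3.35e-05) and RARS2 (-0.33, adjusted p = 6.49e-05). The MOLM-13 change was larger for CARS1 (-1.15, adjusted p = 1.09e-06), VARS1 (-1.11, adjusted p = 1.08e-06) and LARS1 (-0.43, adjusted p = 0.00713), and smaller for FARS2 (-0.57, adjusted p = 6.62e-08), TARS1 (-0.55, adjusted p = 6.88e-07) and EPRS1 (-0.33, adjusted p = 0.00673). On day 4 the TARS1 change was -0.32 (adjusted p = 0.000647).

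**Figure D5:**
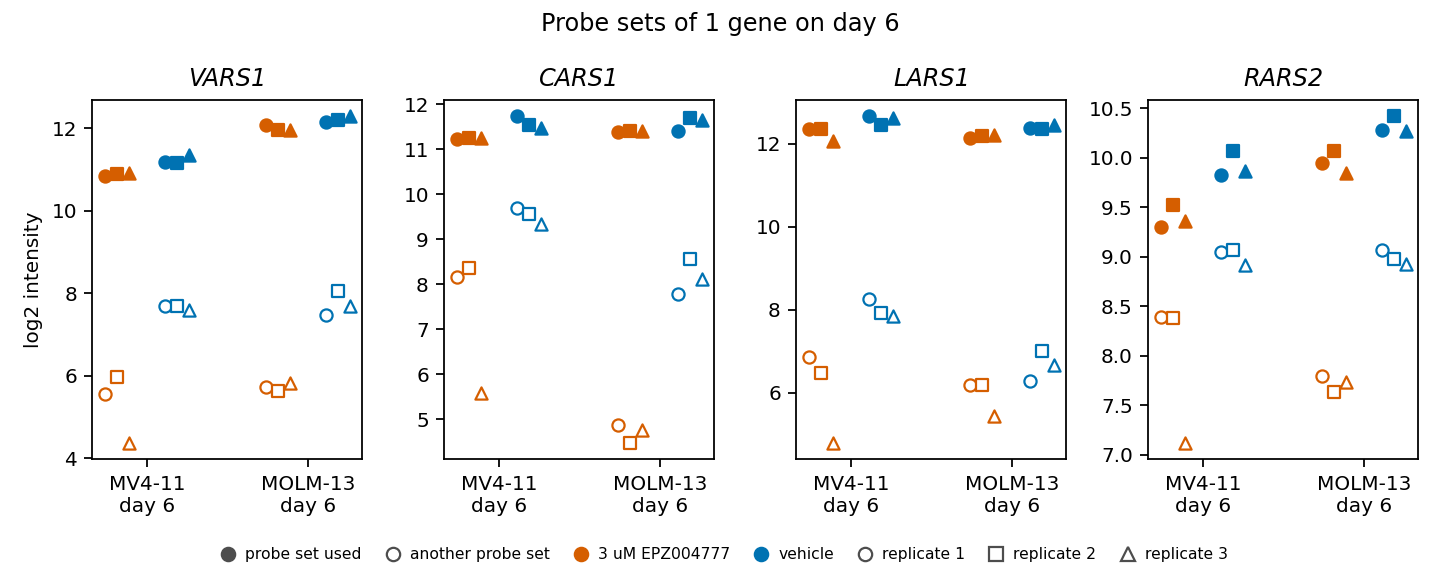
Log2 intensity on day 6 of the probe set used (filled) and another probe set (open) of VARS1, CARS1, LARS1 and RARS2, treated left of vehicle in each line. Marker shapes give the replicate. The open orange triangles, treated MV4-11 replicate 3, are the lowest of their group, and the filled points part less than the open ones.

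Other genes of the same systems were read from lists. The lists were chosen with earlier results of these data known, so their counts describe these genes and are no independent test. Of 31 tested genes of the ATF4 pathway other than synthetases, 16 fell on day 2, 29 on day 4 and 26 on day 6 in MV4-11 cells, and 23 in MOLM-13 cells, where 3.68%, 21.0%, 28.4% and 36.5% of all genes fell. In the same order 0, 0, 1 and 2 rose, where 8.82%, 25.2%, 33.6% and 29.3% of all genes rose. Their median changes were -0.49, -1.21, -0.82 and -1.02. The 4 with the smallest p on MV4-11 day 6 were SLC7A1, an importer of cationic amino acids (-1.02), SLC7A5, an importer of large neutral amino acids (-1.04), CBS of cysteine synthesis (-1.78) and PSAT1 of serine synthesis (-1.22). In MOLM-13 cells they changed by -0.42, -1.05, -1.34 and -1.51. In the vehicle cultures of day 4, 18 of these 31 genes were higher than on days 2 and 6 and 1 was lower, where 13.4% of all genes were higher and 15.2% lower. Those arrays are the vehicle side of the day 4 comparison.

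Of 84 tested genes of mitochondrial translation, mainly subunits of the mitochondrial ribosome, 2 fell on day 2, 17 on day 4, 65 on day 6 and 75 in MOLM-13 cells, with 0, 4, 0 and 1 rising, against the same shares of all genes. Their median changes were -0.02, -0.07, -0.39 and -0.51. MRPL17 (-0.86), MRPS28 (-1.14), MRPL37 (-0.53) and MRPL1 (-0.54), ribosomal proteins, led by p on MV4-11 day 6. In the vehicle cultures of day 4, 55 of the 84 were lower than on days 2 and 6, with a median of -0.25, where 15.2% of all genes were lower. Of 13 tested genes for other steps of tRNA charging and handling, 1 fell on day 2, 4 on day 4, 9 on day 6 and 10 in MOLM-13 cells, and 0, 4, 3 and 1 rose. Of all genes 3.68%, 21.0%, 28.4% and 36.5% fell and 8.82%, 25.2%, 33.6% and 29.3% rose. PUS1, a pseudouridine synthase (-0.69), and TRNT1, which adds the terminal CCA (-0.54), fell on day 6 in MV4-11 cells. TARS3, a further threonine enzyme (1.09), and SEPSECS of selenocysteine synthesis (0.56) rose. In MOLM-13 cells TARS3 fell (-0.46) and SEPSECS rose (0.46).

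Of 8 genes for the multisynthetase scaffold and elongation factors, 4 were tested, and on day 6 in MV4-11 cells 2 rose and 1 fell, where 62.0% of all genes were called. EEF1D (0.29) and EEF2 (0.12), elongation factors, rose, and AIMP1, a scaffold protein of the complex, fell (-0.40). EEF1A1, which brings charged tRNA to the ribosome, changed by 0.01 and was not called. Of 12 genes that sense uncharged tRNA or amino acids, 0 were called on day 2. On day 4 there were 3 higher and 2 lower, on day 6 there were 4 higher and 3 lower, and in MOLM-13 cells 1 was higher and 4 lower. The shares called, 5, 7 and 5 of 12, were below the 46.2%, 62.0% and 65.8% of all genes called in those comparisons. EIF2AK4, which encodes the sensor kinase GCN2, changed by -0.60 in MOLM-13 cells on day 6, against 0.64 in MV4-11 cells. EIF2S1, the subunit it phosphorylates, fell in both, with changes of -0.58 in MOLM-13 cells and -0.83 in MV4-11 cells. RRAGC, a GTPase of amino acid signalling to mTORC1, rose in MV4-11 cells (0.58), and SESN1, a sestrin, fell (-0.49), while in MOLM-13 cells neither was called (0.04 and -0.05).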

How the data were processed

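RNA of 24 cultures was measured on 1 array each. The deposited values are 1 intensity per probe set and array, made by the authors with GCRMA, per the submitters' processing notes, with no version named there. Deposited intensities were linear, from 4.55 to 71593, so log2 was taken with a pseudocount of 0. Log2 levels below are of these deposited intensities. The lowest value is shared by all 24 arrays and marks no measurable level. The number of arrays limits the precision, and an exact test of 3 against 3 cannot give a two-sided p under 0.1.

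Of 54675 probe sets, 41091 were listed with 1 gene, 1801 with several and 11777 with none. The 62 control probe sets, most of them among the last, stood for no gene. Of the probe sets with 1 gene, 41037 matched the RefSeq table of GRCh38.p14 by Entrez ID, with 0 symbols updated. Probe sets with log2 of at least 4 in at least 3 arrays were kept, and the brightest stood for its gene, which left 10971 genes. A model with 1 mean per group was fitted to the 24 arrays (limma 3.58.1, R 4.3.3, two-sided, Benjamini-Hochberg over 10971 genes, called under 0.05). The script was tested on simulated data with independent noise for each array. For MV4-11 day 6 it called 64 of 100 changes of 0.5 and 95 of 100 changes of 1, with 7 false calls. Changes of 0.5 or less can thus go uncalled. Only the genes with these changes differed in the simulation, a far smaller share than the 62.0% of all genes called in the data. Its rates need not hold for the data. Python 3.11.15, pandas 2.3.3, numpy 2.4.6 and matplotlib 3.10.9 did the rest. No 2 arrays were identical (0 pairs).

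The members and lists were chosen with earlier results of these data known. Every member is accounted for. Values of each array are given for members called in all 3 MV4-11 comparisons or in MOLM-13 cells, for the largest and smallest day 6 changes of each class, and for members whose day 6 change differs between lines. From each list up to 4 genes are named by adjusted p on MV4-11 day 6. Same-numbered arrays did not deviate together (r = -0.26 to 0.096 per pair), so no pairing was used. Alternatives were no filter and a filter at log2 6, the mean of probe sets, a trended robust prior, another quantile normalization, a common median, log2 of the value plus 16, a replicate block, a 3′ to 5′ covariate, only the arrays compared, other vehicle arrays for day 4 and each array left out.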

Additional observations from a re-analysis of the deposited data

Results flagged for a closer look

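Treatment effects that differed between days or lines by a test of the difference itself (limma, adjusted p under 0.05 over all genes) are listed here. All are log2 differences between changes. In MV4-11 cells, the day 4 change minus the day 2 change was -0.66 for AARS1, -0.41 for GARS1, -0.80 for WARS1 and 0.53 for EARS2. The vehicle arrays of day 4 were themselves high for AARS1 and WARS1 and low for EARS2.

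The day 6 change minus the day 2 change was negative for 3 cytosolic members, AARS1 (-0.64), IARS1 (-0.43) and YARS1 (-0.36). It was negative for 7 mitochondrial members, FARS2 (-0.83), LARS2 (-0.52), MARS2 (-0.85), NARS2 (-0.63), RARS2 (-0.48), WARS2 (-0.64) and YARS2 (-0.27), and positive for HARS2 (0.27).

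The day 6 change in MOLM-13 cells minus that in MV4-11 cells was negative for the cytosolic members EPRS1 (-0.52), RARS1 (-0.34), SARS1 (-0.60) and TARS1 (-0.65) and positive for YARS1 (0.33). It was negative for the mitochondrial members EARS2 (-0.94), FARS2 (-0.66), IARS2 (-0.37) and PARS2 (-0.52). The 3′ to 5′ difference was larger in treated than in vehicle arrays of day 6 in both lines. With it as a covariate, SARS1 (-0.38, adjusted p = 0.0605) and IARS2 (-0.08, adjusted p = 0.482) no longer differed past the threshold, and the other 7 did.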

How the results depend on the processing

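Of 65 called member changes in the 4 treatment comparisons, 37 were called with the same sign under every alternative and 28 were lost under at least 1, of which 3 changed sign. Sign changes of values called in neither setting were not counted. Leaving out 1 array at a time, the members that fell numbered 4 to 6 cytosolic and 0 to 0 mitochondrial on day 2, 8 to 10 and 0 to 1 on day 4, 10 to 11 and 8 to 8 on day 6, and 8 to 12 and 9 to 11 in MOLM-13 cells. The called differences numbered 2 to 3 and 0 to 1 between days 4 and 2, 3 to 4 and 5 to 8 between days 6 and 2, 5 to 7 and 3 to 8 between lines, 2 to 6 and 5 to 7 for vehicle day 4, and 9 to 10 and 9 to 10 for the vehicle cultures of both lines. The cause of these moves was not tested.

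Counts moved by more than 1.5 times as follows. Shares of all genes under these settings are not given here. Mitochondrial members that fell on day 4 numbered 1, and 0 with the mean of probe sets or only the arrays compared, and 5 with vehicle arrays of days 2 and 6. On day 6 they numbered 8, and 5 with the covariate or only the arrays compared. In MOLM-13 cells the covariate gave 7 cytosolic and 6 mitochondrial in place of 12 and 11. Between days 4 and 2, the cytosolic 3 became 5 with the covariate or only the arrays compared, and the mitochondrial 1 became 0 without the filter or with the mean of probe sets and 2 with only the arrays compared. Between days 6 and 2, the cytosolic 3 became 8 with the mean of probe sets and 5 with a common median, and the mitochondrial 8 became 5 without the filter or with only the arrays compared. Between lines, the cytosolic 5 became 10 with a common median, and the mitochondrial 4 became 8 with quantile normalization and 7 with a common median.

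Signs turned with the mean of probe sets for CARS2 in MOLM-13 cells (-0.20), EPRS1 (-0.72), FARSA (-0.27) and EARS2 (-0.32) between days 6 and 2, EPRS1 between lines (0.56), FARSB for vehicle day 4 (0.16), and FARSB (0.31) and FARS2 (0.0088) between vehicle lines. With the covariate they turned for LARS1 (0.0137) and NARS2 (0.15) in MOLM-13 cells and for NARS2 between lines (0.31) and between vehicle lines (0.25). NARS1 in MOLM-13 cells turned with quantile normalization (0.028), and HARS1 (-0.20) and YARS2 (-0.22) on day 4 with vehicle arrays of days 2 and 6. With replicate number as a block, the day 2 change of TARS1 (-0.34, adjusted p = 0.0527), the day 4 change of NARS1 (-0.12, adjusted p = 0.0549) and the MOLM-13 change of NARS1 (-0.12, adjusted p = 0.0542) were no longer called, and no count moved by over 1.5 times. The numbers do not pair the samples, and the block lost or gained no other call in the 4 treatment comparisons. The alternative of testing every probe set has no count of its own and is given as values beside the members.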
